A study of Mus musculus with 4 samples.

Results

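The mitotic kinases Cdk1, Plk1, Aurka, Aurkb, Bub1, Bub1b, Nek2, Ttk, Melk and Pbk were read in muscle progenitor cells of aged and young C57Bl/6 mice. The genes were chosen by name, with earlier results of these data known, and for each the probe set with that gene symbol was taken. The lower level of mitotic genes in the aged arrays was among those results. All 10 were found, each with 1 probe set, among 19505 genes on the array. The cells came from muscle digested with collagenase and were sorted as positive for CD29 and ITGA7, integrins used to enrich satellite cells, the stem cells of skeletal muscle. The aged group held 2 arrays from mice of 2 years and the young group 2 arrays from mice of 5 weeks. Both groups shared the strain, the sort and the array type, and neither carried a treatment or an altered allele according to the labels. The sources used here do not give the sex or the number of animals per array. If arrays of an age share animals, the p-values cover only technical spread. The comparison asked how expression in these cells differed between the ages.

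Transcripts of mitotic kinases rise before cell division and are known as marks of dividing cells. Cdk1 with its cyclins drives entry into mitosis, Plk1 and the Aurora kinases build the spindle and guide division, and Bub1, Bub1b and Ttk hold back anaphase until every chromosome is attached. Adult satellite cells are mostly quiescent, while those of juvenile muscle still divide and add nuclei to growing fibres.

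All 10 kinases had lower mean levels in aged than in young arrays, and none passed the adjusted threshold. Values are the deposited log2 levels, and differences are aged minus young in log2 units of that table. They are not given as folds, because the deposited values run up to 19.4 and the variant of the summarising method is not stated. The median difference of the kinases was -1.43, and that of all 19572 tested probe sets was -0.0013. Negative differences were held by 50.2% of all tested probe sets. At an unadjusted p under 0.05 in limma, 5 of the 10 kinases were lower and none was higher, while 3.99% of all tested probe sets were lower and 3.36% higher by this rule. After Benjamini-Hochberg adjustment over all tested probe sets 0 of 10 passed in limma, as did 0% of the table, and the adjusted p of the kinases ran from 0.386 to 0.944. In 6 of 10 both aged arrays lay below both young arrays, against 18.4% of all tested probe sets. The kinases were listed with lower mitotic genes already known, so these shares are descriptions and not independent support. In such bulk samples fewer dividing cells and less RNA per dividing cell cannot be told apart.

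The arrays differed in ways other than age. How well exon controls stood out from intron controls reflects RNA and labelling quality. As an area under the curve it was 0.792 and 0.819 for aged arrays and 0.849 and 0.823 for young arrays. Both aged values were below both young ones, so this quality value and age cannot be fully told apart in these arrays. Intron controls read background, and their medians ran from 6.25 to 6.76 over the arrays. With this quality value as a covariate, which leaves 1 residual degree of freedom, the median of the kinases was -1.37 and 2 of them, Bub1 and Nek2, were lower at an unadjusted p under 0.05. The part of array quality in the differences was not tested further.

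**Figure D1:**
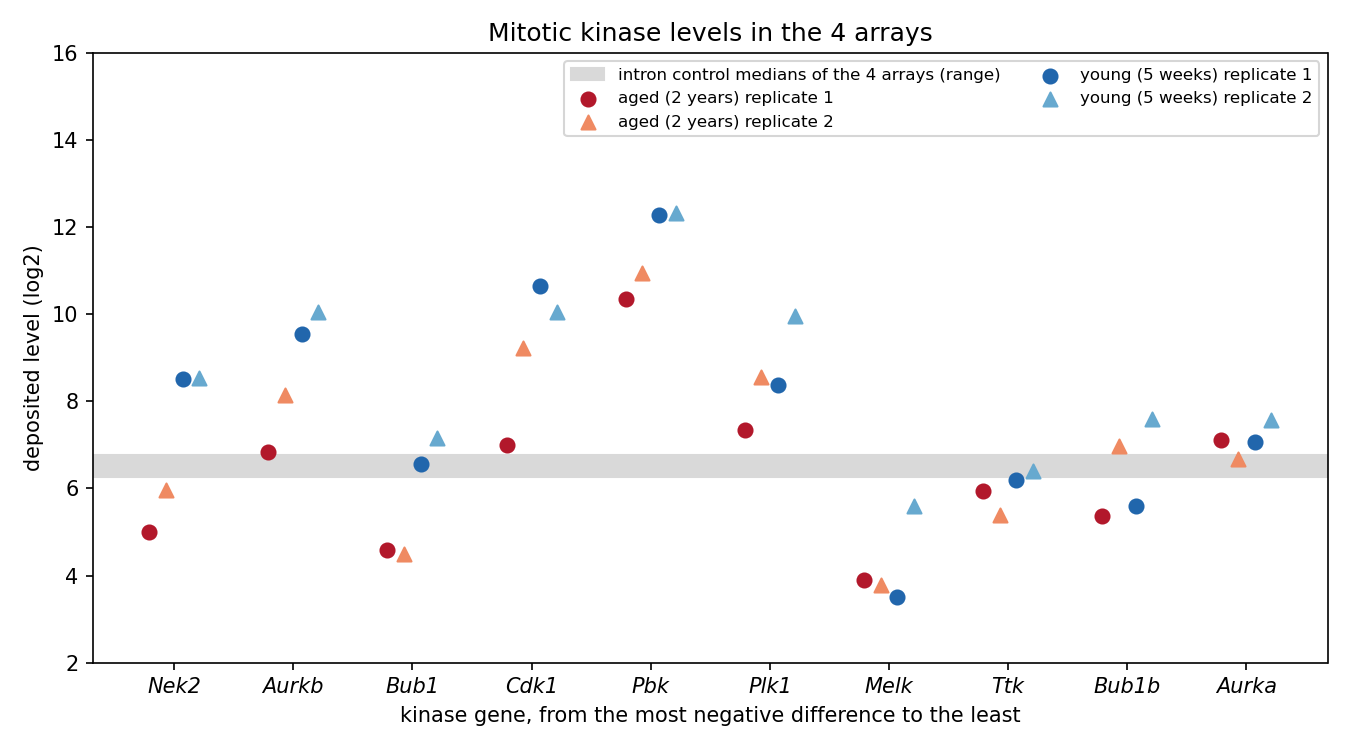
Deposited log2 level of each mitotic kinase in the 4 arrays, with aged arrays in red and orange and young arrays in blue, and the grey band marking the range of intron control medians (6.25 to 6.76). Nek2, Aurkb, Bub1, Cdk1, Pbk and Ttk have both aged arrays below both young arrays, and the other genes overlap.

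Cdk1, the kinase that triggers mitosis, was read at 7.00 and 9.22 in aged arrays and at 10.66 and 10.05 in young arrays. Both aged readings were below both young ones, but the aged arrays stood 2.23 apart. The difference was -2.25 ± 0.73 (SE, n = 2 arrays an age; 95% interval -4.06 to -0.44; limma unadjusted p of 0.0230 and adjusted p of 0.603). It was -1.13 without aged replicate 1, where the unadjusted p was 0.0553, and -1.95 with an unadjusted p of 0.0578 without young replicate 1. With the quality value of the controls in the model it was -0.57. The size for Cdk1 therefore rested largely on aged replicate 1.

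Plk1, the Polo-like kinase of centrosome maturation and spindle assembly, was read at 7.35 and 8.56 in aged and at 8.37 and 9.96 in young arrays. The groups overlapped, since aged replicate 2 stood above young replicate 1. The difference was -1.21 ± 0.65 (SE; 95% interval -2.81 to 0.39; limma adjusted p of 0.758), and it was -0.42 without young replicate 2 and -0.61 without aged replicate 1. Without young replicate 1 it was -2.01 (limma unadjusted p of 0.0108).

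The Aurora kinases differed from each other in how far apart the ages were. Aurkb, the catalytic subunit of the chromosomal passenger complex, was read at 6.83 and 8.13 in aged and at 9.55 and 10.05 in young arrays. Its groups did not overlap, and the difference was -2.32 ± 0.50 (SE; 95% interval -3.55 to -1.09; limma unadjusted p of 0.00379 and adjusted p of 0.465). Aurka, which works at centrosomes and spindle poles, was read at 7.12 and 6.67 in aged and at 7.07 and 7.58 in young arrays. Those groups overlapped, the readings lay close to the intron control medians, and the difference was -0.43 ± 0.34 (SE; 95% interval -1.28 to 0.42; limma adjusted p of 0.852). The level of Aurkb less that of Aurka, taken within each array, was -0.29 and 1.46 for aged arrays and 2.47 for each young array. The aged arrays were thus both below the young ones in this quantity, by -1.89 on average, which says that the age differences of the pair were unequal in these arrays and not that Aurka was constant. With 2 arrays an age the smallest two-sided exact permutation p is 0.333, and no model was fitted to this contrast of genes, which is given as a description.

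The checkpoint kinases were likewise unequal. Bub1, a kinase of the spindle checkpoint at kinetochores, was read at 4.59 and 4.50 in aged and at 6.57 and 7.16 in young arrays. The aged readings were nearly equal and stood 1.97 below the lower young one, and the difference was -2.32 ± 0.33 (SE; 95% interval -3.13 to -1.50; limma unadjusted p of 0.000491 and adjusted p of 0.386). Leaving out single arrays gave -2.61 to -2.02 for Bub1. Only 15.9% and 14.9% of intron controls read lower than Bub1 in the aged arrays, against 55.5% and 58.4% in the young arrays, so the aged readings lie within background and the size is uncertain.

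Bub1b encodes BubR1, a part of the mitotic checkpoint complex. It was read at 5.37 and 6.98 in aged and at 5.61 and 7.60 in young arrays, so that the replicates of an age differed more than the ages did. The difference was -0.43 ± 0.80 (SE; 95% interval -2.42 to 1.55; limma adjusted p of 0.944), and its sign turned when aged replicate 1 (0.37) or young replicate 2 (0.57) was left out. Ttk, also known as Mps1, starts checkpoint signalling at unattached kinetochores. It was read at 5.93 and 5.40 in aged and at 6.19 and 6.40 in young arrays, below the intron control median in every array. The groups of Ttk were separate by 0.26, and the difference was -0.63 ± 0.33 (SE; 95% interval -1.44 to 0.18; limma adjusted p of 0.748). The level of Bub1 less that of Bub1b was -0.77 and -2.47 for aged arrays and 0.96 and -0.44 for young arrays, again without overlap and again as a description.

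Nek2, a centrosomal kinase that helps centrosomes to separate, had the largest difference of the 10 kinases. It was read at 5.00 and 5.97 in aged and at 8.50 and 8.53 in young arrays. The young arrays agreed within 0.03, and the higher aged reading stood 2.53 below them. The difference was -3.03 ± 0.40 (SE; 95% interval -4.01 to -2.04; limma unadjusted p of 0.000322 and adjusted p of 0.386), with -3.51 to -2.54 when single arrays were left out. Among intron controls 21.5% and 38.3% read lower than Nek2 in aged arrays, against 80.9% and 77.0% in young arrays. The aged readings of Nek2 are thus within background too.

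Pbk and Melk are less studied kinases whose transcripts are abundant in dividing cells. Pbk was read at 10.36 and 10.94 in aged and at 12.28 and 12.32 in young arrays, above 89.4% of intron controls in aged replicate 1 and a larger share in each other array. The groups did not overlap, and the difference was -1.65 ± 0.33 (SE; 95% interval -2.46 to -0.84; limma unadjusted p of 0.00266 and adjusted p of 0.452). Leaving out single arrays gave -1.94 to -1.36 for Pbk. Melk was read at 3.89 and 3.77 in aged and at 3.51 and 5.60 in young arrays, all below the intron control medians. Only young replicate 2 stood apart, and the difference of -0.72 ± 0.68 (SE; 95% interval -2.39 to 0.95; limma adjusted p of 0.876) was 0.32 without that array. Without young replicate 1 it was -1.77, with an unadjusted p of 0.00394 in limma.

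**Figure D2:**
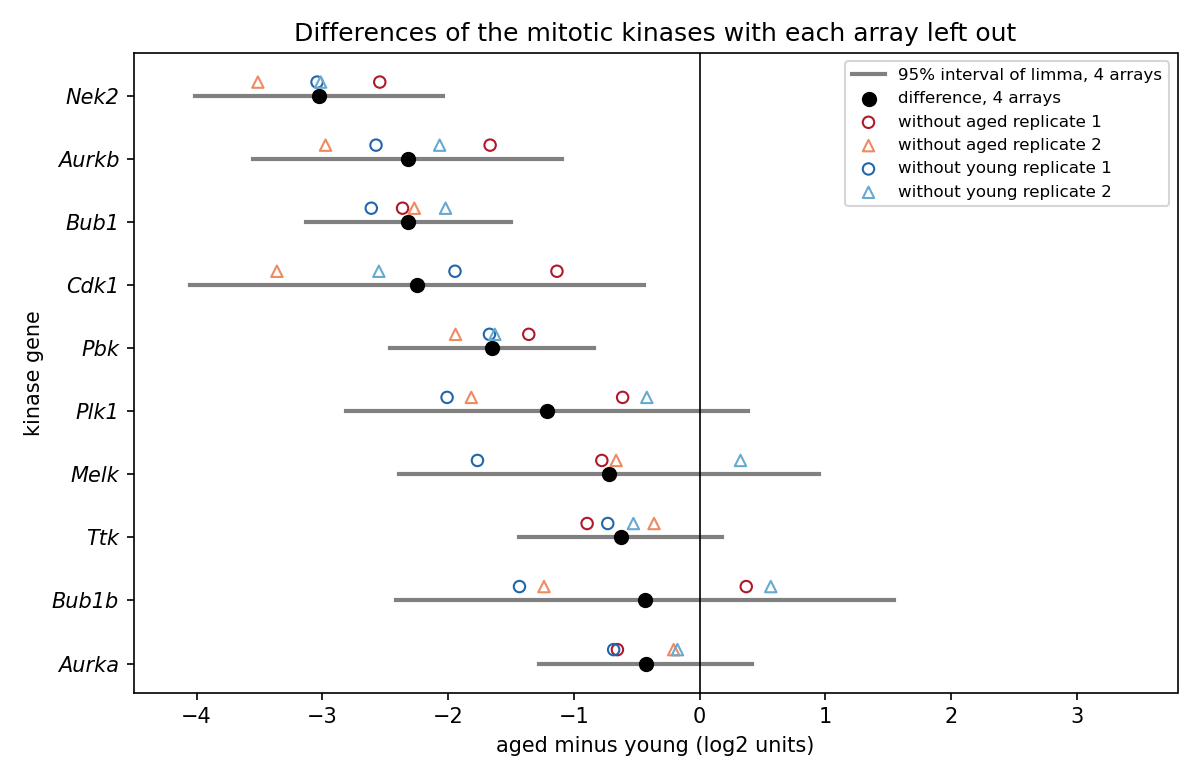
Difference between aged and young arrays for each mitotic kinase (log2 units), with black points for the fit on 4 arrays, grey bars for its 95% interval and open symbols for fits without 1 array. The intervals of Nek2, Aurkb, Bub1, Cdk1 and Pbk lie below 0, and the open symbols of Melk and Bub1b fall on both sides of 0.

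Across the 10 kinases the arrays of an age also differed. The mean level, centred on the 4 arrays, was -1.09 and -0.41 for aged arrays and 0.40 and 1.10 for young arrays, so the step between the young arrays was close to that between the aged ones. Young replicate 2 read higher than young replicate 1 for 9 of 10 kinases, all but Cdk1. Aged replicate 2 read higher than aged replicate 1 for 6 of 10. Without young replicate 2 the median difference was -1.08, with 8 negative differences and 5 genes at an unadjusted p under 0.05, while such probe sets in the whole table numbered 2037 in place of 1438, in either direction. Without aged replicate 1 the median was -1.01, with 9 negative differences and 4 such genes, beside 1044 probe sets of the whole table. Aurkb, Bub1, Nek2 and Pbk were at an unadjusted p under 0.05 in each of the 4 fits without 1 array. Only Cdk1, Plk1, Aurkb and Pbk were read above the intron control median in all 4 arrays, and Ttk and Melk in none.

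The mean profile was not the profile of a typical kinase of the group. The root mean square distance of a centred gene from it was 0.24 for Pbk, the nearest, and 0.81 for Cdk1, the farthest, which ranked 6862 among all genes. The 5 nearest genes outside the group were Elp3, Sephs1, Hmmr, Plin3 and Cenpk, with distances of 0.061 to 0.106 over 4 arrays. Hmmr, which encodes a spindle protein, was read at 6.49 and 7.19 in aged and at 8.19 and 8.90 in young arrays, and Cenpk, of the inner kinetochore, at 7.07 and 7.57 and at 8.31 and 8.98. Elp3, a subunit of the Elongator complex, was read at 6.65 and 7.36 in aged and at 8.30 and 8.85 in young arrays. Over so few arrays a short distance is a description only.

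Genes of the cell division cycle are commonly controlled through CCAAT boxes, bound by NF-Y, and the cell cycle homology region, bound by MuvB complexes. Promoters of 8 of the 10 kinases were matched in RefSeq (GRCm38.p6), and Aurkb and Pbk were not. The stretches shown are the 150 bases before the annotated start, read 5′ to 3′ on the gene's strand. Cdk1, Bub1 and Nek2 are shown as genes whose ages did not overlap, and Plk1 and Aurka as genes whose ages did. Capitals mark the NF-Y motif CCAAT, and its reverse complement, and the cell cycle homology cores TTTGAA, again on either strand, and TTTAAA, which reads alike on both strands.
Cdk1, chr10:69352913-69353062 (- strand): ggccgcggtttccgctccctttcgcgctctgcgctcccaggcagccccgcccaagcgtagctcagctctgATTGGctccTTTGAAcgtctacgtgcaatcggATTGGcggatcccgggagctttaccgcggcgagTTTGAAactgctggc
Bub1, chr2:127831860-127832009 (- strand): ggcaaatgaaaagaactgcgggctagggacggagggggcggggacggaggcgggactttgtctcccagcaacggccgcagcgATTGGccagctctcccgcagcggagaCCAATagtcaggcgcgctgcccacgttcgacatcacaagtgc
Nek2, chr1:191821323-191821472 (+ strand): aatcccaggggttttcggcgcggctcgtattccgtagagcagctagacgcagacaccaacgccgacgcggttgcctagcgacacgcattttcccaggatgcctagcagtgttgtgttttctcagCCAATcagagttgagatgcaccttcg
Plk1, chr7:122159285-122159434 (+ strand): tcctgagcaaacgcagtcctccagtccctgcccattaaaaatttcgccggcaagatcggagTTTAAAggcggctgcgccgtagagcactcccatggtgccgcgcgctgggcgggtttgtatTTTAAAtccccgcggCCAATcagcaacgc
Aurka, chr2:172370571-172370720 (- strand): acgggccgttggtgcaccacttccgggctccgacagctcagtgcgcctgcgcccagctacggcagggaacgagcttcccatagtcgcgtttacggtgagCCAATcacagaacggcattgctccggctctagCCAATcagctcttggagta

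CCAAT boxes were found in genes of both kinds. In windows of 250 bases before to 50 after the start, CCAAT on either strand was found in 7 of 8 kinases, all but Melk, against 37.4% of all 32851 promoters in the table. At least 2 copies were found in 5 of 8, against 11.7% of all promoters. Cdk1 had 3 copies, beginning 208, 80 and 48 bases before the start, and Bub1 had 2, beginning 68 and 42 bases before it. Nek2 had 1 beginning 26 bases before the start and 1 at base 8 after it, and Aurka had 2, beginning 51 and 19 bases before its start.

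The core TTTGAA was found in 5 of 8 kinases, against 17.9% of all promoters, and TTTAAA in 2 of 8, Plk1 and Aurka, against 13.2%. In Cdk1 the TTTGAA matches began 71 and 15 bases before the start. In Plk1, Aurka, Bub1b and Ttk they began at bases 31, 33, 41 and 8 after it. Neither core was found in the windows of Nek2, Bub1 and Melk, which says only that these letters are not in these windows. Whether motif content goes with the age difference was not tested. A match is a description and not evidence of binding, and the motifs can overlap one another by a few letters.

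The partners and switches of Cdk1 were lower in part. The list held cyclins, Cks subunits, Cdc25 phosphatases and the inhibitory kinases Wee1 and Pkmyt1, and 9 of 11 were measured. Of these, 2 were lower at an unadjusted p under 0.05 in limma, against 3.99% of all tested probe sets, none was higher, and the median difference was -0.69. Ccnb2, a B-type cyclin that activates Cdk1, was read at 9.63 and 10.81 in aged and at 11.82 and 11.76 in young arrays (-1.57 ± 0.45, SE). Ccna2, cyclin A2, was read at 8.92 and 9.48 in aged and at 10.68 and 10.13 in young arrays (-1.20 ± 0.36). Both cyclins had separate groups, like Cdk1. Cdc25c, an activating phosphatase, differed by -0.82 ± 0.34 and Wee1 by -0.75 ± 0.35, neither at an unadjusted p under 0.05. The count of 2 was 1 without aged replicate 1, and also 1 with the quality value in the model. Ccnb1 and Ccnf were not analysed here.

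Among 9 measured partners of the Aurora kinases, 2 were lower at an unadjusted p under 0.05 in limma, against 3.99% of all tested probe sets, and the median was -0.27. With the quality value in the model the count was 0. Tpx2, which activates Aurora A on the spindle, was read at 7.62 and 9.17 in aged and at 10.13 and 10.74 in young arrays (-2.04 ± 0.56, SE), and Hmmr differed by -1.70 ± 0.41. Subunits of the passenger complex travel with Aurora B. Birc5, encoding survivin, differed by -1.26 ± 0.57 and Cdca8, encoding borealin, by -1.09 ± 0.46, neither at an unadjusted p under 0.05. The other 5 measured partners overlapped between the ages. Among them was Incenp, also of the passenger complex, at -0.08 ± 0.41.

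Spindle checkpoint, kinetochore and anaphase genes had the most lower readings among these lists. All 15 were measured, 9 were lower at an unadjusted p under 0.05 in limma (3.99% of all tested probe sets), none was higher, and the median difference was -0.96. Nuf2, of the kinetochore complex that grips microtubules, was read at 6.74 and 6.31 in aged and at 9.23 and 8.67 in young arrays (-2.42 ± 0.35, SE). Spc25, of the same complex, differed by -1.31 ± 0.28. Sgo1, the protector of centromere cohesion, differed by -2.03 ± 0.46, and Mad2l1, the checkpoint protein Mad2, by -1.31 ± 0.33. In 11 of 15 both aged arrays lay below both young ones, against 18.4% of all tested probe sets. This list too was chosen with earlier results known, so its shares are not independent support. The count of 9 was 5 without aged replicate 1 and 4 with the quality value of the controls in the model. None passed the adjusted threshold, with adjusted p-values from 0.386 upward in limma.

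Other kinases of the cell cycle stood nearer to 0. All 17 were measured, the median difference was -0.18, and 1 was lower at an unadjusted p under 0.05 in limma. That is a share of 5.9%, near the 3.99% of all tested probe sets, so nothing is read from it. The gene was Cdk2, of S phase, at -1.10 ± 0.44 (SE). This count was 0 when replicate 1 of either age was left out. It was 2 without aged replicate 2, and 3 when young replicate 2 was left out. It was also 0 with the quality value in the model, without dim probe sets, over every entry of the table, after a second quantile normalization and with a trend in the variance prior. Without aged replicate 1 and without young replicate 2, 1 gene was higher in each case. Mastl, which restrains the phosphatase that opposes Cdk1, was read at 9.07 and 10.48 in aged and at 11.27 and 10.26 in young arrays and overlapped. Cdk6, a G1 kinase, was read at 10.09 and 10.96 in aged and at 9.53 and 9.91 in young arrays (0.80 ± 0.40), and Cit, of cytokinesis, differed by -0.66 ± 0.44.

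Mitotic phosphatases, transcription factors of the G2/M program and DNA replication genes had no gene at an unadjusted p under 0.05 in limma. The median was -0.28 over 10 measured phosphatase genes, where Arpp19, an inhibitor of the phosphatase PP2A, differed by -0.56 ± 0.30 (SE). It was -0.03 over 13 measured transcription genes, with Nfyb, a subunit of NF-Y, at -1.13 ± 0.54 and Mybl2, or B-Myb, at 0.50 ± 0.29 with readings below the intron control median in all arrays. It was -0.04 over 12 measured replication genes, where Tyms, thymidylate synthase, differed by -0.93 ± 0.43 and Mcm4, of the replicative helicase, by -0.47 ± 0.29. Without aged replicate 2 the lower counts were 2 for the transcription and 1 for the replication genes. Without young replicate 2, 1 transcription gene was lower and 1 phosphatase gene higher. Foxm1, Ppp2ca and Mcm7 were not analysed here. Whether the lists differ from the kinases was not tested.

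**Figure D3:**
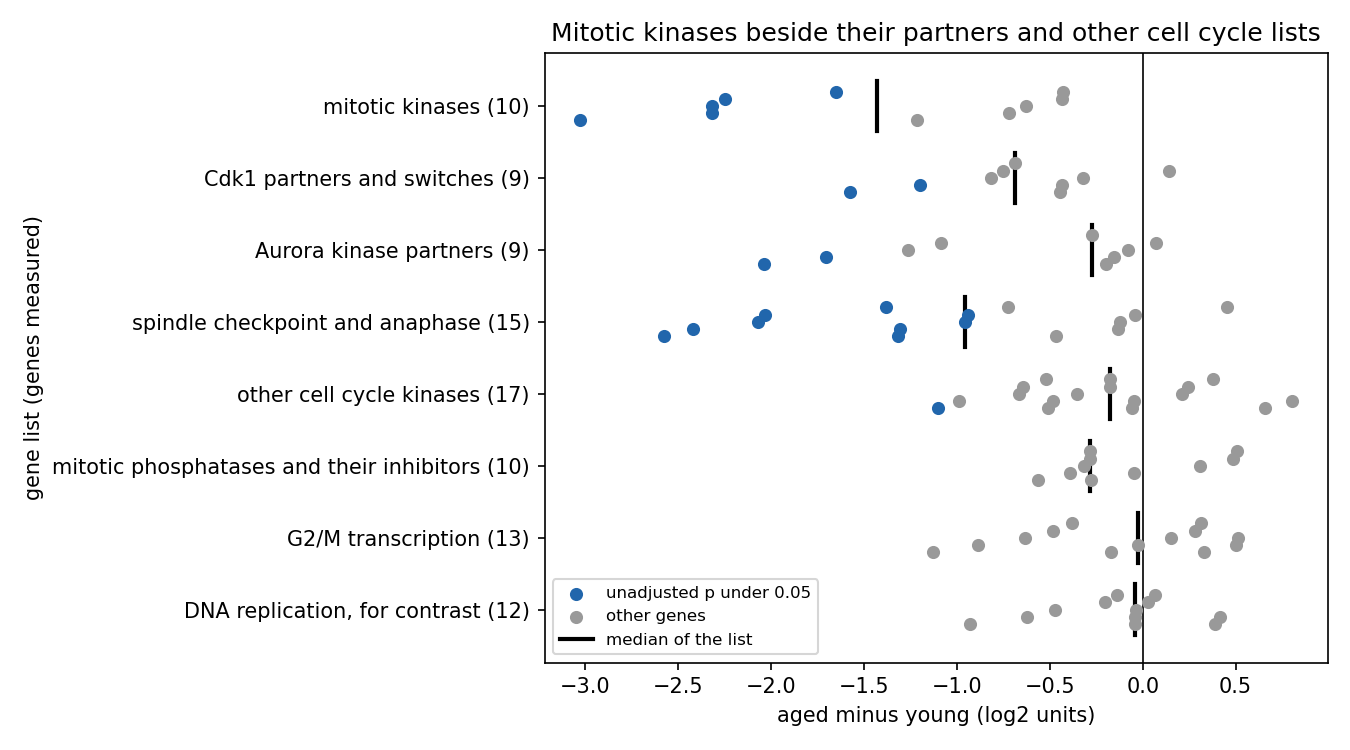
Difference between aged and young arrays (log2 units) for each measured gene of the mitotic kinases and of 7 related lists, with blue points at an unadjusted p under 0.05 and black bars at list medians. The medians run from -1.43 for the mitotic kinases and -0.96 for checkpoint and anaphase genes to -0.03 for G2/M transcription.

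Markers of several cell types differed between the arrays as well. Satellite cell markers were all measured (10 of 10), and all read above the intron control median in each array. At an unadjusted p under 0.05 in limma 2 of the 10 were lower and none was higher. Over all tested probe sets 3.99% were lower and 3.36% higher by this rule. Of the 10 differences 8 were negative, against 50.2% of all tested probe sets, and the median was -0.26. In 4 of 10 both aged arrays lay below both young ones, against 18.4% of all tested probe sets. Myod1, the factor of myogenic commitment, differed by -1.16 ± 0.43 (SE) and Megf10, a receptor of satellite cells, by -1.36 ± 0.45, and these were the lower pair, chosen after their values were seen. Their part in the kinase differences was not tested. The summed level of the list was 119.8 and 123.1 for aged arrays and 128.9 and 121.8 for young arrays. Cd34, a surface protein of satellite and other cells, was read at 16.03 and 15.53 in aged arrays and at 15.61 and 15.97 in young ones, so its groups overlapped. The 2 positive differences of the list were those of Sdc4 (0.69 ± 0.52) and Pax7 (0.12 ± 0.51), and both genes overlapped between the ages. Granulocyte precursor markers were higher in both aged arrays for 7 of 7 genes, against 18.2% of all tested probe sets. At an unadjusted p under 0.05 in limma 6 of 7 were higher and none was lower. Their median difference was 4.62, and none passed the adjusted threshold. In every array 1 of the 7 read below the intron control median. The summed level of these markers was 68.1 and 80.7 for aged arrays and 39.0 and 47.8 for young arrays.

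Leukocyte and macrophage markers, of which 6 of 7 were measured, summed to 49.1 and 47.7 for aged arrays and 39.9 and 37.5 for young arrays. T, NK and B cell markers (7 of 7) summed to 44.1 and 55.6 for aged arrays and 36.4 and 34.8 for young ones. Both aged arrays lay above both young ones for 5 of these 6 leukocyte and 4 of these 7 lymphoid markers. The share over all tested probe sets was 18.2%, and the other markers of these lists overlapped. At an unadjusted p under 0.05 in limma 4 of 6 and 4 of 7 were higher (3.36% of all tested probe sets). None was lower, none passed the adjusted threshold, and the median differences were 1.45 and 1.38. In every array 3 of the 6 leukocyte and 2 of the 7 lymphoid markers read below the intron control median. Fibro-adipogenic progenitor markers (4 of 6) summed to 56.3 in each aged array and 63.2 and 61.2 in the young ones. Their genes were unequal. The collagen genes Col1a1 and Col3a1 differed by -3.22 ± 0.45 (SE) and -2.10 ± 0.49, and Lum by -0.54 ± 0.33. Dcn differed by -0.05 ± 0.29 and overlapped, and Pdgfra and Ly6a were not analysed here. The sums of these lists differed between the ages in the same arrays as the kinases. The part of these lists in the kinase differences was not tested.

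The remaining lists did not separate the ages in most of their genes. Endothelial markers (4 of 5) summed to 35.1 and 29.5 for aged arrays and 31.5 and 44.4 for young arrays. In this sum young replicate 2, which also had the highest kinase levels, stood apart. Tek was an exception, read at 10.86 and 10.19 in aged and at 9.43 and 10.52 in young arrays. Mature muscle fibre markers (6 of 6) summed to 80.9 in aged replicate 1, which had the lowest kinase levels, and to 64.2, 65.8 and 64.9 in aged replicate 2 and the young replicates. Pericyte and smooth muscle markers (5 of 5) summed to 68.6 and 66.2 for aged arrays and 68.9 and 64.9 for young ones. Erythroid precursor markers (3 of 6) summed to 18.5 and 19.0 for aged arrays and 17.9 and 18.2 for young ones. Both aged sums were above both young ones. In 1 of the 3 genes both aged arrays lay above both young ones, against 18.2% of all tested probe sets. None of the 3 read above the intron control median in every array, so these readings lie near background. None of the measured markers was listed at 0. The lowest entries of the arrays ran from 2.08 to 2.23, so this says nothing of detection. The kinase medians of -1.08 without young replicate 2 and -1.01 without aged replicate 1 are the values without the arrays that stood apart.

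**Figure D4:**
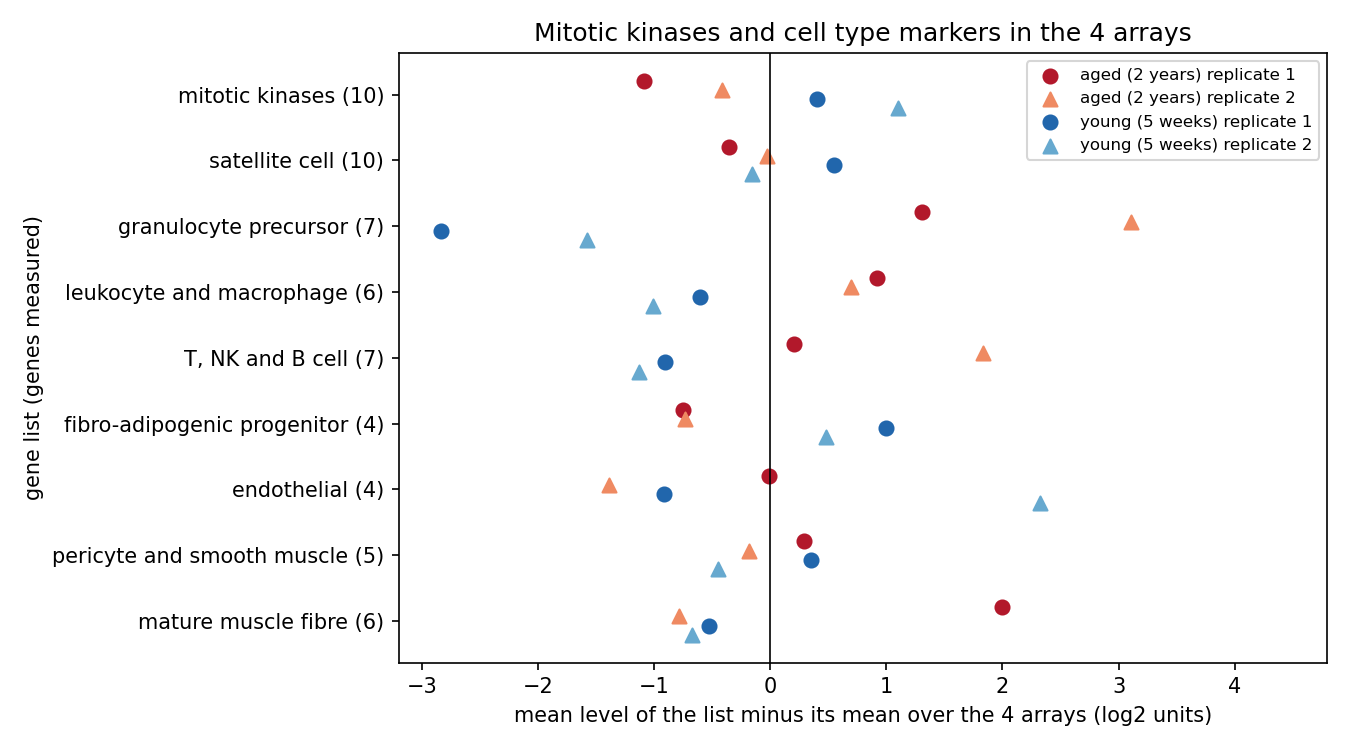
Mean level of the mitotic kinases and of 8 cell type marker lists in each array, as the deviation from the list's mean over the 4 arrays (log2 units). The kinases are at -1.09 and -0.41 for aged arrays and 0.40 and 1.10 for young ones, granulocyte precursor markers are higher in both aged arrays, and endothelial markers are highest in young replicate 2.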

How the data were processed

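Log2 probe set levels of 4 arrays were analysed as the authors deposited them. Per the submitters' processing notes they were made with RMA and the Transcriptome Analysis Console. The sources used here give no versions, no genome build and no RMA variant. Per the labels' protocols, biotin-labelled cDNA was made from 1 ng of total RNA. Gene names came from the platform annotation, and probe sets with 1 gene symbol (19572) were tested. Where a gene had several, the one with the highest mean was used.

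The ages were compared by limma (version 3.58.1, R version 4.3.3) through its lmFit and eBayes functions (two-sided, age group as the only term, Benjamini-Hochberg over all tested probe sets, threshold 0.05, no filter on low levels). The fit was checked on simulated data. The SE and 95% interval come from this fit. The number of arrays limits the precision. Control probe sets carry only the words negative and positive in their deposited names. They were taken as the intron and exon controls of this array family, which no file used here states.

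The naming rule covered the 10 kinases and the 5 genes nearest to the mean kinase profile. It also covered up to 4 genes with the smallest p of each related list. From each marker list it took up to 2 genes with the highest level. Not every gene it covered is described. Incenp, Pax7, Myod1, Megf10, Col1a1, Col3a1, Pttg1, Nek6, Cdc20 and Kit fall outside it. The members and lists were chosen with earlier results of these data known. The lower level of mitotic genes in the aged arrays was among those results, so it is not independent support here.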

Additional observations from a re-analysis of the deposited data

How the results depend on the processing

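The 10 kinases, the 3 summary values and the related lists were recomputed under 13 alternatives. No probe set passed the adjusted threshold in limma (1438 at an unadjusted p under 0.05), except 2 with the replicate block, Elane and Mpo, and 1 without young replicate 2, Kit, so that leaving out single arrays gave 0 to 1; these genes were named after their values were seen. The count of 5 kinases was 2 with the control quality value (exon against intron separation) in the model and 4 to 6 without single arrays. The median of -1.43 was -1.95 when dim probe sets were left out, where 6 kinases were measured, and -1.88 to -1.01 without single arrays. The difference of Bub1b was 0.37 when aged replicate 1 and 0.57 when young replicate 2 was left out. That of Melk ran from -1.77 to 0.32, the latter without young replicate 2. With the quality value in the model the lower counts were 4 for checkpoint and anaphase genes, 1 for Cdk1 partners and 0 for Aurora partners and for other kinases. The cause was not tested. All other kinase differences kept a negative sign under each alternative run. Not every alternative could change a kinase difference. It was fixed under averaged probe sets, every entry of the table, dim probe sets left out, the other variance priors and the replicate block. Only the leave-out fits, the 2 rescalings of the arrays and the quality value therefore bear on the sign.

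The deviations of same-numbered arrays from their age means had a correlation of -0.051 across probe sets. With 2 arrays an age this value cannot show whether the replicate numbers pair the arrays. With the replicate block 6 kinases were lower at an unadjusted p under 0.05, Plk1 being the added one, and the median was -1.43. Signal near that of intron controls limits Bub1, Nek2, Ttk, Melk, Bub1b and Aurka, whose readings lay below the intron control median in at least 1 array.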

Other observations

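Pttg1 and Nek6 had higher readings in the aged arrays, unlike the kinases, and with Cdc20 they were picked out after their values were seen. Pttg1, which encodes securin, the inhibitor of separase and a substrate of the anaphase-promoting complex, was read at 14.27 and 14.26 in aged and at 13.82 and 13.81 in young arrays. Both aged readings were above both young ones, and the difference was 0.45 ± 0.28 (SE; limma adjusted p of 0.795). Nek6, a mitotic kinase related to Nek2, was read at 8.92 and 9.13 in aged and at 8.68 and 8.62 in young arrays, and its difference was 0.38 ± 0.29 (limma adjusted p of 0.847, SE after the sign). Cdc20, the activator that Mad2 and BubR1 hold back, was read at 6.57 and 8.83 in aged and at 9.40 and 11.15 in young arrays, and its difference was -2.58 ± 0.88 (limma adjusted p of 0.605). For Cdc20 the arrays of one age stood 2.26 (aged) and 1.75 (young) apart.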
